A study of Homo sapiens with 3 samples.

Results

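The data described here are the difference between A498 cells exposed to E. coli 83972 and control A498 cells, on 2 of the 3 arrays in the series. It was taken for every probe set with 1 gene symbol, 45259 of 49386, which name 18239 genes. A498 is an established epithelial line from a human kidney carcinoma that lacks functional VHL, and E. coli 83972 is a urinary strain known for carriage without symptoms. Cultures kept in medium with 5% fetal calf serum received fresh medium without serum, with gentamicin, and RNA was taken after 4 h. The control culture received 0.08% DMSO, whereas the labels state no DMSO for the culture with bacteria, so solvent and bacterium cannot be told apart. The labels give 2 different bacterial concentrations, and no dose is therefore stated. Both arrays are numbered as experiment 2. With 1 array a side there was no replicate, no test was possible, and every difference below compares 2 arrays of 1 culture each. A 2-fold difference is 1 on the log2 scale.

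Epithelial cells sense Gram-negative bacteria through receptors that release NF-κB from its inhibitors and activate MAP kinases. These act with factors of the AP-1 and C/EBP families on genes of defence, adhesion and survival. The same signals switch on their own brakes: inhibitors of NF-κB, ubiquitin-editing enzymes, MAP kinase phosphatases and proteins that destabilise messenger RNA. Stress pathways such as the ATF4 and heat shock responses are governed separately, through translation control and through protein folding.

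The culture's identity was checked on markers. The renal factor gene PAX8 read 7.07 on the control array, CA12 12.06, CD70 11.11 and the keratin gene KRT18 11.63, and each differed by less than 0.2 with the bacterium. Of the 23 renal markers 20 passed the filter, and LHX1 and EGLN3 alone were at least 2-fold different, both lower. Of all 18239 genes with a named probe set 11653 passed the filter. At least 2-fold higher were 1.22% of all these genes, and lower 0.417%. Of 13 leukocyte markers 5 passed the filter, as did 3 of 9 endothelial and 2 of 10 fibroblast markers, and none was at least 2-fold different. Not all of these were low on the control array, where the leukocyte marker CD68 read 9.08 and the fibroblast marker ACTA2 8.08.

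The promoters of several of the genes with higher levels hold the letters of a κB site, and they are shown first because several of these genes are described below. The letters searched were GGANTTNCC on either strand, within the 250 bases before each gene's start in the RefSeq promoter table (GRCh38.p14). They were present in 24 of the 181 genes with a promoter in the table that were higher by 2-fold or more (13.3%), in 5 of 61 such lower genes (8.2%), in 341 of 9321 genes under 2-fold (3.66%) and in 1003 of all 27305 promoters (3.67%). The motif was chosen with results of these data known, and a match is a description of letters, not of a bound site. NFKBIA, which encodes the inhibitor IκBα, held 2 matches. TNFAIP3, which encodes the ubiquitin-editing enzyme A20, held 1. Both promoters are given from 250 bases before the start up to the start, on the strand of the gene, with the matches in capitals. The NFKBIA promoter lies at chr14:35404750-35404999 on the minus strand and that of TNFAIP3 at chr6:137867009-137867258 on the plus strand.
NFKBIA: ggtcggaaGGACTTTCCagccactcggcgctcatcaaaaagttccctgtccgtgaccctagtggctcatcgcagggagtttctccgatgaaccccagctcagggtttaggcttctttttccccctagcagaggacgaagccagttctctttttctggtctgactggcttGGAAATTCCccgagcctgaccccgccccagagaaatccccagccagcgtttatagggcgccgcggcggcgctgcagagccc
TNFAIP3: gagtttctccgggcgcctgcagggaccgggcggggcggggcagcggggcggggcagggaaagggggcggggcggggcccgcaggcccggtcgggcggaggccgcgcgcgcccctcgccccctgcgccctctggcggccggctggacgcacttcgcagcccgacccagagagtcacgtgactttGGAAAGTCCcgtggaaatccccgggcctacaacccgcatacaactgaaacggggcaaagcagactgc

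Windows of 41 bases around the match allow a comparison between genes. They are turned so that each reads GGANTTNCC, with the match in capitals. The first 10 belong to genes at least 2-fold higher with the bacterium, and the last 2, HEXIM1 and HSPA2, to genes at least 2-fold lower, so the letters were not limited to the former.
NFKB1, chr4:102501295-102501335: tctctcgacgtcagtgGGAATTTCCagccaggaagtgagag
REL, chr2:60881512-60881552: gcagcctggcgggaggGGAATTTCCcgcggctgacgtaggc
NFKBIZ, chr3:101827752-101827792: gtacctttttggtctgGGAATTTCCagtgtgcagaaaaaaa
ICAM1, chr19:10270918-10270958: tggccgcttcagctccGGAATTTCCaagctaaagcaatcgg
VCAM1, chr1:100719665-100719705: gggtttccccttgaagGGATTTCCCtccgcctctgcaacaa
TNFRSF9, chr1:7940888-7940928: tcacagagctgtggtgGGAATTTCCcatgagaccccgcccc
PTX3, chr3:157436738-157436778: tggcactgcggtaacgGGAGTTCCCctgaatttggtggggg
TICAM1, chr19:4831807-4831847: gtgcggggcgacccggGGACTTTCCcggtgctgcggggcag
IFNGR2, chr21:33403298-33403338: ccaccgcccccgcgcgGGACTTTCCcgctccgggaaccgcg
SESN2, chr1:28259379-28259419: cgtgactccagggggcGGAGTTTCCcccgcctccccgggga
HEXIM1, chr17:45148384-45148424: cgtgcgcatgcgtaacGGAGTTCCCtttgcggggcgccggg
HSPA2, chr14:64540676-64540716: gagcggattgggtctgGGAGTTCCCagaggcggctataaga
NFKB1, REL, NFKBIZ, ICAM1 and TNFRSF9 shared the same 9 letters, GGAATTTCC. The AP-1 motif TGANTCA was in 4.42% of promoters of higher genes against 4.08% of genes under 2-fold, and the CRE motif TGACGTCA in 2.76% against 2.82%. The motif TGATGNAA, which resembles sites of CHOP and ATF factors, was in 2.76% against 1.53%, that is in 5 of 181 promoters of higher genes. Over all 27305 promoters the shares were 6.6% for the AP-1 motif, 1.77% for the CRE motif and 3.19% for TGATGNAA. The share of TGATGNAA among higher genes was therefore above that of genes under 2-fold but below that of all promoters. The heat shock element, alternating GAA and TTC units, was in 0 of the 61 promoters of lower genes. It was in 1 of the 181 of higher genes (0.552%), in 0.354% of genes under 2-fold and in 0.439% of all promoters. The motif is too rare for a count in 61 promoters to be informative.

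Of 18239 genes with a named probe set, 11653 reached the filter on low signal, which required at least 1 of the 3 arrays to be at or above the median of all values (log2 4.88). Each gene was represented by its brightest probe set. With E. coli 83972, 222 of the genes that passed were higher by 2-fold or more (1.91%) and 76 lower by as much (0.652%), 298 in all (2.56%). Most transcripts were close to the control level, with 88.5% of genes differing by less than 0.5. Differences of 2 or more on the log2 scale numbered 49 upwards and 7 downwards. The disagreement between 2 probe sets of a gene corresponds to a standard deviation of 0.18 for a difference, which contains no variation between cultures. It is pooled over genes that mostly lay near the control level, and is not the precision of a single gene. Over the probe sets of 1 gene the standard deviation was 0.98 for DUSP1 and 2.74 for IL6, against 0.13 for TNFAIP3 and 0.01 for SOCS2. In a bulk sample, fewer cells and less RNA per cell cannot be told apart, and the scale mattered to the split. Centring on poly-A spike-ins, control transcripts added to the RNA, lowered every difference by 0.14 and gave 171 higher and 115 lower genes. Centring on the 9 hybridization spike-ins lowered it by 0.25 and gave 141 and 170. Of these probe sets 7 read E. coli genes, with a median difference of 0.32, and whether RNA of the bacterium added to them, and so to this centring, was not tested. The 2 for the phage gene cre alone, an alternative added after the values were seen, gave a shift of 0.18, 160 higher and 131 lower genes.

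**Figure D1:**
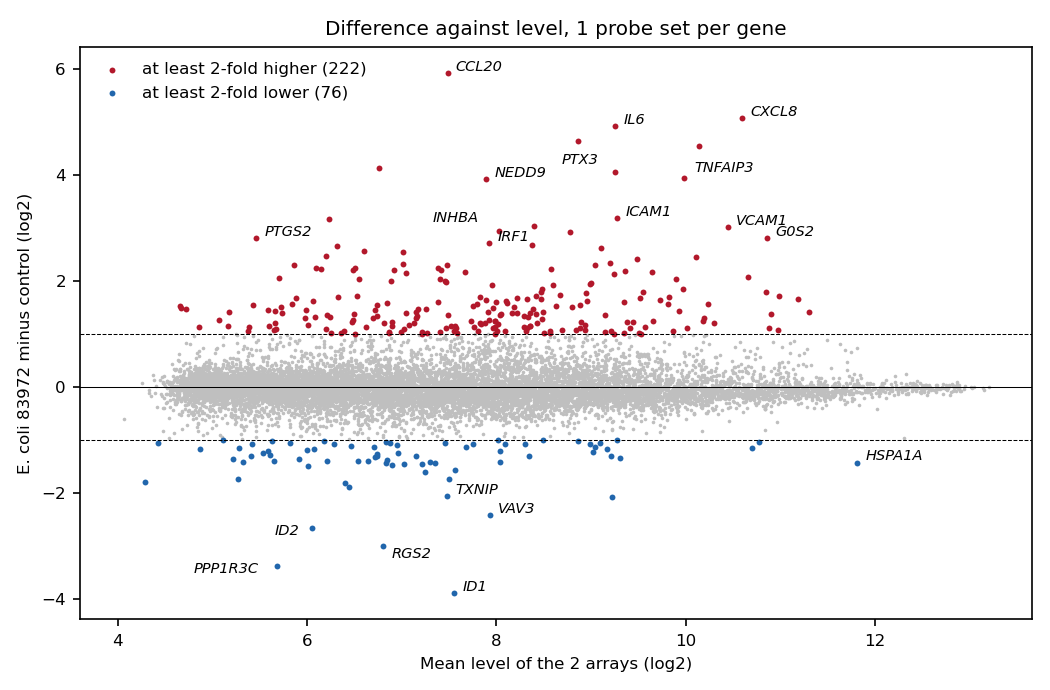
Difference between the E. coli 83972 and control arrays (y axis, log2) against the mean level of the same 2 arrays (x axis, log2) for 11653 genes, 1 point per gene; dashed lines mark 2-fold. The 222 higher genes (red) reach 5.92, whereas the 76 lower genes (blue) end at −3.88.

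Agreement between probe sets is the check on single genes that 1 array a side allows. Among the 222 higher genes, 130 had 2 or more probe sets above the filter. In 73 of these (56.2%) all probe sets were at least 2-fold higher, and in 127 all pointed the same way. Among the 76 lower genes, 40 had several, with all at least 2-fold lower in 15 (37.5%) and all in the same direction in 36. Over the 6316 genes with several probe sets, 1.16% had all of them higher by 2-fold or more and 0.237% all lower. No gene had probe sets 2-fold or more apart from control in opposite directions. The check was not available for 92 higher and 36 lower genes, which had 1 kept probe set. Among these were PTGER4, ZEB2, HBEGF, PPP1R3C, RGS2, HSPA1B and TNFRSF10D.

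**Figure D2:**
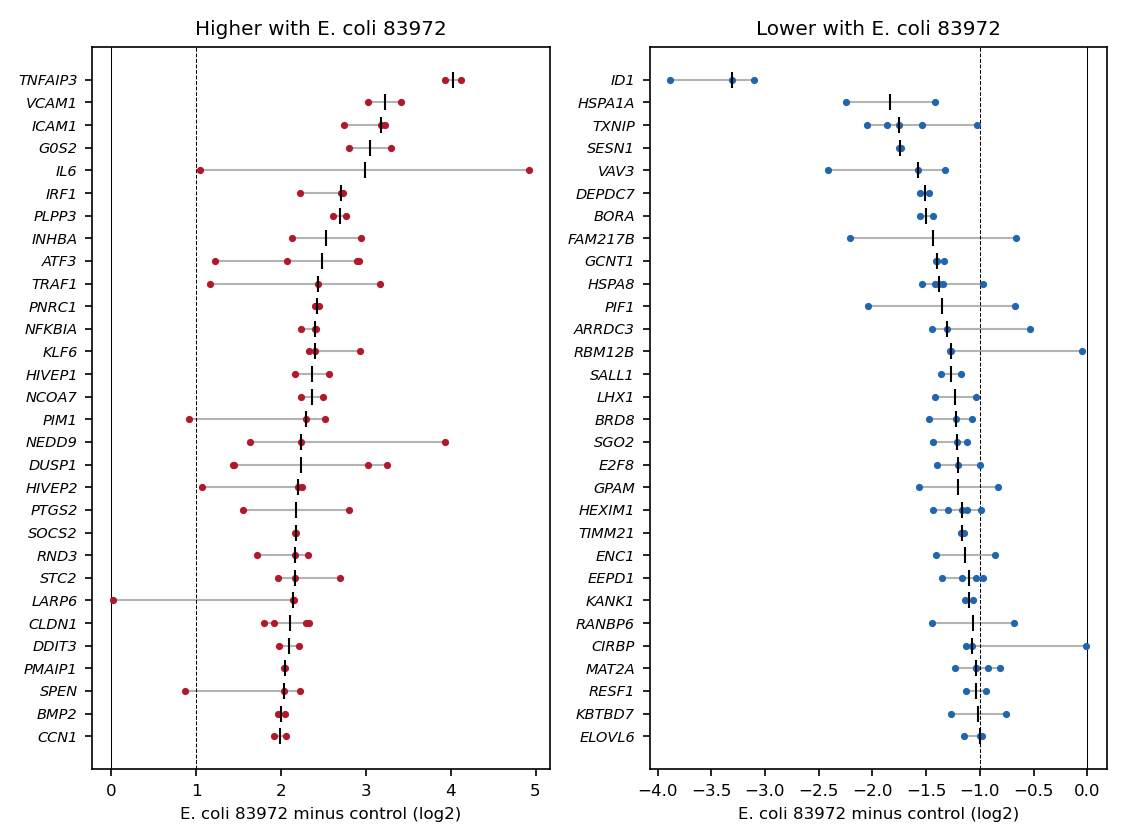
Difference between the E. coli 83972 and control arrays (x axis, log2) for each kept probe set (points) of the 30 genes with the highest and the 30 with the lowest median difference (black ticks), chemokines left out. Only genes with 2 or more kept probe sets that all differ in one direction were ranked, so agreement in direction was required. Probe sets of TNFAIP3 lie between 3.94 and 4.12, while the 2 probe sets of IL6 lie at 1.05 and 4.92.

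NF-κB is a dimer of REL family subunits held in the cytoplasm by IκB inhibitors, several of which are its own targets. All 11 genes of subunits and inhibitors had higher values with the bacterium, and 7 were at least 2-fold higher, against 1.22% of all genes with a named probe set. That share, and 0.417% for lower genes, is the background of each list count below. The median was 1.19, against 0.00 for all genes, and was 1.06 with poly-A and 0.94 with hybridization spike-ins. The latter left 4 of the 7 at 2-fold, without REL, RELB and BCL3. NFKBIA read 8.29 on the control array and 10.69 on the E. coli 83972 array, a difference of 2.41, and its 3 probe sets lay between 2.24 and 2.41. NFKBIE, another cytoplasmic inhibitor, differed by 1.49 from 1 probe set. The nuclear inhibitor-like genes NFKBIZ and BCL3, which modulate NF-κB on DNA, were higher by 1.52 and 1.19. Among the subunits NFKB1, the gene of the p50 precursor, was higher by 1.54, RELB by 1.22 and REL by 1.16. RELA and NFKB2 stayed under 2-fold, at 0.64 and 0.72. Subunits and inhibitors were therefore higher side by side, by different amounts.

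Ubiquitin-editing enzymes and adaptors act between receptors and the IκB kinase. Of 22 genes of this group 5 were 2-fold or more higher and 0 lower, with a median of 0.33, and 3 remained with hybridization spike-ins. TNFAIP3 read 8.02 on the control array and 11.95 with the bacterium, a difference of 3.94 or 15.3-fold. TRAF1, an adaptor of TNF receptors, was higher by 3.17, but its 3 probe sets ranged from 1.16 to 3.17 and its control value, 4.65, was under the filter level. BIRC2, the gene of the ubiquitin ligase cIAP1, differed by 1.30, with all 5 probe sets between 1.08 and 1.53. The A20 partners TNIP1 and TNIP3 differed by 1.25 and 1.01, though the mean over probe sets was under 2-fold for both (0.80 and 0.88). The deubiquitinase gene CYLD lay just under 2-fold at 0.97. Outside the list, and named after their values were seen, TIFA, an adaptor that couples bacterial sugar sensing to TRAF6, was higher by 1.50, and TANK, a scaffold of the kinase TBK1, by 1.01.

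Receptors and kinases of bacterial sensing stood apart less. Of 34 such genes 4 were 2-fold or more higher and 0 lower, with a median of 0.02. RIPK2, the kinase downstream of the peptidoglycan sensors NOD1 and NOD2, differed by 1.70, and its 2 probe sets read 1.68 and 1.70. IRAK2, a kinase of Toll-like receptor signalling, differed by 2.68 in its brightest probe set but by 0.19 in the other. TLR1 and the adaptor TICAM1 were higher by 1.41 and 1.09, each from 1 probe set, and the control value of TLR1 was under the filter level. TLR4, the lipopolysaccharide receptor, read 5.64 on the control array and 5.04 with the bacterium, a difference of −0.60.

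Cytokines beyond the chemokines were few. Of 25 interleukin and colony-stimulating factor genes 4 were 2-fold or more higher and 0 lower, and the median was 0.12. IL6 read 6.80 and 11.72, a difference of 4.92. LIF, a cytokine of the IL-6 family, differed by 1.64, with 1.64 and 1.85 in its 2 probe sets. IL1A and IL12A were higher by 1.14 and 1.48, but both had control values under the filter level (4.59 and 3.92). IL18, an interleukin that epithelia store as a precursor, went the other way at −0.87. Chemokines, described only in total here, had 9 of 32 genes at least 2-fold higher; their median was 0.12 over all 32 and 1.05 over the 17 that passed the filter, a filter that favours genes high on any array.

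Members of the TNF superfamily stood out singly. Of 28 ligand and receptor genes 1 was at least 2-fold higher and 1 lower. TNFRSF9, the costimulatory receptor 4-1BB, read 5.89 and 7.89, a difference of 2.00. TNFRSF10D, a decoy receptor for the death ligand TRAIL, read 7.38 and 5.50, a difference of −1.88. The signalling TRAIL receptors TNFRSF10A and TNFRSF10B differed by 0.85 and 0.75, so the decoy and the signalling receptors had differences of opposite sign.

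In cytokine receptor signalling, PIM kinases, interferon-γ receptor chains and the inhibitor SOCS2 had higher levels. Of 33 genes of the JAK-STAT pathway 5 were 2-fold or more higher and 0 lower, with a median of 0.24. PIM1 and PIM3, kinases that STAT factors induce, were higher by 2.29 and 1.94. The lowest of 3 PIM1 probe sets read 0.91, and PIM3 had 1 kept probe set. SOCS2, an inhibitor of cytokine receptors, read 6.59 and 8.76, a difference of 2.17, and its 2 probe sets read 2.17 and 2.18. IFNGR1 and IFNGR2, the 2 chains of the interferon-γ receptor, were higher by 1.76 and 1.23. Interferon-stimulated genes had 2 of 34 at least 2-fold higher (IRF1 at 2.71 and GBP1 at 1.46), 0 lower, and a median of −0.01. IRF1 was supported by 3 probe sets between 2.22 and 2.73, and GBP1 by 5 between 1.36 and 1.84. None of 26 antigen presentation genes differed by 2-fold, and TAP2 at 0.54 was the highest of those above the filter.

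MAP kinase phosphatases of the DUSP family remove phosphates from ERK, p38 and JNK. Of 14 such genes 4 were 2-fold or more higher, against 1.22% of all genes, and 0 lower, with a median of 0.15. DUSP1 read 6.88 and 9.91, a difference of 3.03, with 4 probe sets between 1.44 and 3.25. DUSP10, which prefers p38 and JNK, differed by 2.24, with 4 probe sets between 1.29 and 2.24. DUSP5 and DUSP16 were higher by 1.59 and 1.50. DUSP4 and DUSP6, both known as ERK-responsive, differed by 0.28 and 0.24, so members of the family had unequal differences. The kinases themselves had 0 of 26 at least 2-fold higher and 1 lower, MAP3K14, which encodes the NF-κB-inducing kinase of the alternative branch, at −1.38.

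**Figure D3:**
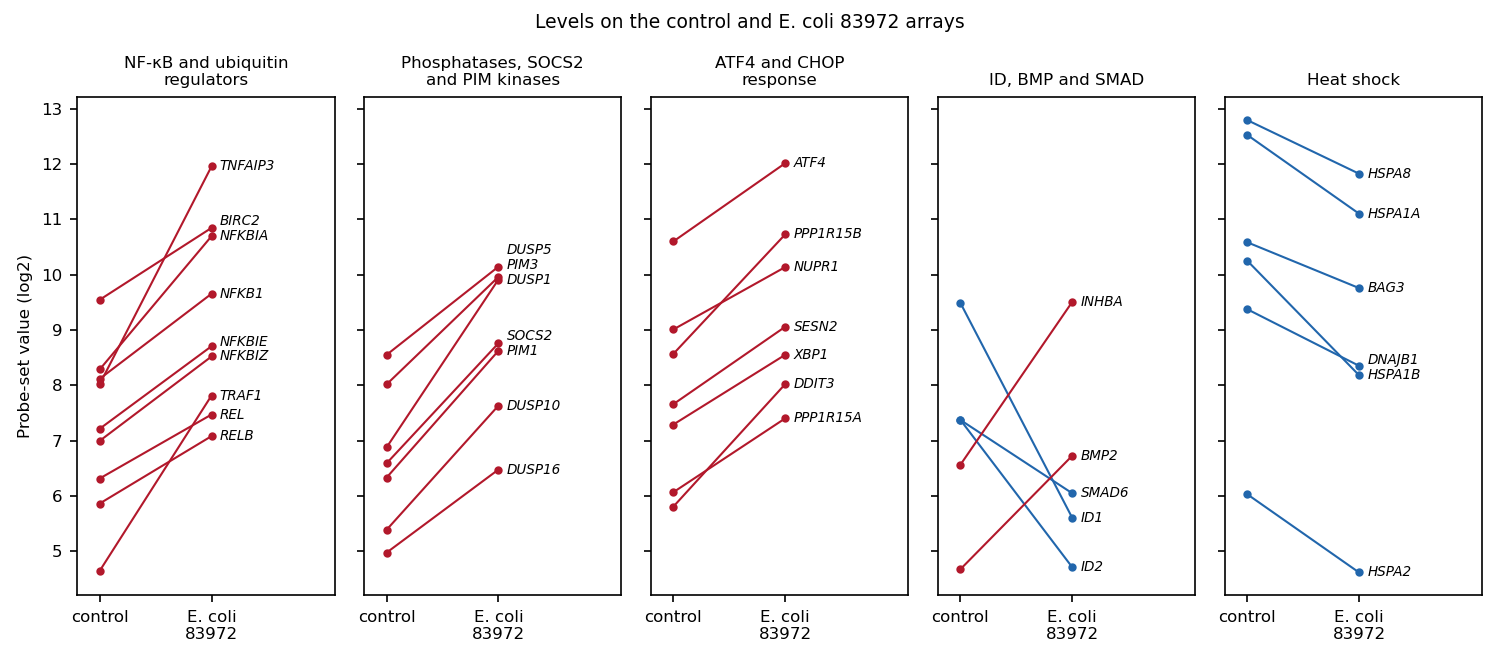
Probe-set value (y axis, log2) on the control and E. coli 83972 arrays for members of 5 groups, 1 line per gene, red where higher and blue where lower with the bacterium. Slopes may be compared, heights of different genes may not; TNFAIP3 goes from 8.02 to 11.95 and ID1 from 9.49 to 5.61.

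Transcription factor families differed in how many of their members were higher. Of 6 C/EBP genes 3 were at least 2-fold higher (2 with either spike-in centring). CEBPD, an acute-phase factor, differed by 1.74, with 4 probe sets between 0.45 and 1.79, CEBPB by 1.38 and CEBPG by 1.05. Of 15 Krüppel-like factor genes 4 were (2 with hybridization spike-ins), with KLF6 at 2.33 over a probe-set range of 2.33 to 2.93, KLF9 at 1.45, KLF7 at 1.14 and KLF3 at 1.02. Among 16 genes of AP-1, ATF and MAF factors 4 were at least 2-fold higher (3 with either spike-in centring). ATF3, a stress-induced repressor, differed by 2.92, with 4 probe sets between 1.22 and 2.92. MAFF, FOSL2 and JUNB followed at 2.24, 1.36 and 1.04. None of these 3 families had a member at least 2-fold lower. Their medians (0.66, 0.37 and 0.33) lay above that of all genes (0.00), and stayed above 0 with both spike-in centrings over the members that passed the filter.

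The EGR, NR4A and IER early genes had 1 of 15 at least 2-fold higher, IER3, an early survival gene, at 2.07, and 1 lower, IER5L, at −1.11, with its other probe set at −0.59. In the MYC network only MYC passed 2-fold among 13 genes, at 1.25. Several factors named by rank were higher as well. HIVEP1 and HIVEP2, zinc finger proteins that bind κB-like sites, differed by 2.57 and 2.20. ZEB2, a repressor of E-cadherin, read 5.74 and 8.29, a difference of 2.55. NCOA7, a nuclear receptor coactivator also known for protection against oxidation, differed by 2.23, with probe sets at 2.23 and 2.50. PNRC1, another nuclear receptor coregulator, differed by 2.45, with probe sets at 2.40 and 2.45. SPEN, a repressor scaffold of Notch targets, differed by 2.04, with 3 probe sets between 0.87 and 2.22. Among factors named after their values were seen, ETS1 was higher by 2.19, GATA6 by 1.60, NFAT5 by 1.38 and RUNX2 by 1.07.

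Proteins that shorten the life of inflammatory messenger RNA include tristetraprolin and the Regnases. Of 30 genes of AU-rich decay, the Regnase family and the BTG and TOB proteins 3 were 2-fold or more higher, against 1.22% of all genes, and 0 lower, with a median of 0.21. With either spike-in centring ZC3H12C alone remained at 2-fold, and the median over members above the filter was −0.09 with hybridization spike-ins. ZC3H12C, a Regnase family gene, differed by 2.00, with probe sets at 1.30 and 2.00. ZFP36, the gene of tristetraprolin, and BTG3 were higher by 1.02 and 1.12, the latter from a control value under the filter level. The roquin genes RC3H1 and RC3H2, both at 0.86, lay under 2-fold. WTAP, a subunit of the RNA adenosine methylation complex named after its values were seen, differed by 2.13 in its brightest probe set, with 0.88 as the lowest of 3.

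**Figure D4:**
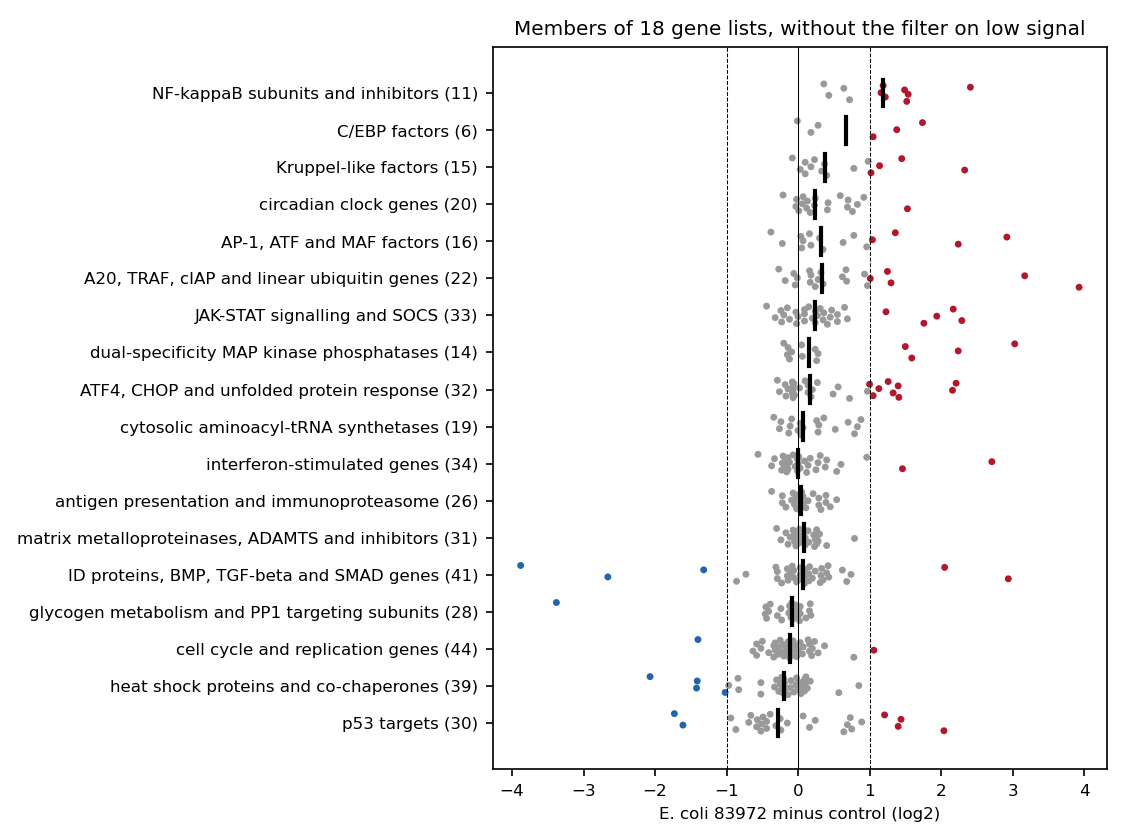
Difference between the E. coli 83972 and control arrays (x axis, log2) for every member with a named probe set of 18 gene lists (number in brackets), 1 point per gene, red or blue at 2-fold or more, with the median as a black bar. The list of NF-κB subunits and inhibitors has the highest median of the 18 (1.19), and that of p53 targets the lowest (−0.28).

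The ATF4 pathway answers amino acid shortage and unfolded proteins through phosphorylation of eIF2α. Of 32 genes of this pathway and the unfolded protein response 9 were 2-fold or more higher, against 1.22% of all genes, and 0 lower. With either spike-in centring 6 remained at 2-fold. The median was 0.16, and with hybridization spike-ins −0.07 over the members that passed the filter. DDIT3, the gene of CHOP, read 5.81 and 8.02, a difference of 2.21, with probe sets at 1.98 and 2.21. PPP1R15B and PPP1R15A, the constitutive and induced regulators of the eIF2α phosphatase, differed by 2.16 (3 probe sets, from 0.83) and 1.33. ATF4 itself was higher by 1.41, the stress factors SESN2 and NUPR1 by 1.40 and 1.13, and XBP1 by 1.26. HERPUD1, a component of degradation at the endoplasmic reticulum, was higher by 1.00 to 1.01 in all 3 probe sets.

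ATF4 is also known to induce carriers and enzymes of amino acid metabolism. Of 27 amino acid transporter genes 1 was at least 2-fold higher, SLC38A2, a sodium-coupled neutral amino acid transporter, at 1.84, though its second probe set read 0.63. The cystine transporter gene SLC7A11 differed by 0.45. Among 19 cytosolic aminoacyl-tRNA synthetase genes 0 were at least 2-fold different, with CARS1, AARS1, MARS1 and GARS1 highest at 0.88, 0.83, 0.79 and 0.70. Metabolic genes named after their values were seen were MTHFD2, of mitochondrial folate metabolism, at 1.12 over 5 probe sets (0.92 to 1.34), CTH, of cysteine synthesis, at 1.47, and PCK2 at 1.20. None of 31 NRF2 antioxidant genes differed by 2-fold, and NFE2L2, which encodes NRF2, read 0.82.

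Prostaglandin E2 is made through the inducible cyclooxygenase and acts on the EP receptors. Of 23 genes of this pathway 2 were 2-fold or more higher and 0 lower. PTGS2, the inducible cyclooxygenase, read 4.06 and 6.86, a difference of 2.80, with the other probe set at 1.55. PTGER4, the EP4 receptor, read 4.99 and 7.64, a difference of 2.65. The terminal synthase PTGES differed by 0.18. The control value of PTGS2 was under the filter level, where values are compressed, and its fold is therefore uncertain.

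Several enzymes of lipid and small-molecule metabolism had higher levels. G0S2, an inhibitor of the lipase ATGL, read 9.46 and 12.26, a difference of 2.80, with probe sets at 2.80 and 3.30. PLPP3, a phosphatase of lysophosphatidic acid, differed by 2.61, with probe sets at 2.61 and 2.77. Among 22 immune metabolism and redox genes 2 were at least 2-fold higher, GCH1, which makes the cofactor of nitric oxide synthase, at 1.37, and, under 2-fold with either spike-in centring, the mitochondrial superoxide dismutase gene SOD2 at 1.06, with 3 probe sets from 1.06 to 1.88. NAMPT, already at 11.47 on the control array, differed by 0.47. Of 32 metallothionein, zinc and iron genes SLC39A14 alone was at least 2-fold higher, at 1.56, but its second probe set read 0.22. LCN2, the iron-sequestering siderocalin, differed by −0.39 and was under the filter level on both arrays. PTX3, a soluble pattern recognition protein, read 7.23 and 11.28, a difference of 4.05 from 1 probe set. In the list of 31 antimicrobial, complement and acute-phase genes that holds PTX3, the only other member at 2-fold was TNFAIP6, a hyaluronan-binding protein, at 1.10, which fell under 2-fold with either spike-in centring.

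The cell surface and matrix contributed adhesion receptors and junction genes. ICAM1, a ligand of leukocyte integrins, read 7.69 and 10.87, a difference of 3.18, with 3 probe sets between 2.74 and 3.23. VCAM1, a ligand of the integrin VLA-4, read 8.94 and 11.96, a difference of 3.02. CD83 followed at 1.67, and the other 19 of 22 leukocyte adhesion genes were under 2-fold. Of 33 junction and laminin genes 2 were at least 2-fold higher. CLDN1, the gene of claudin-1, differed by 1.80, with 4 probe sets from 1.80 to 2.33, and LAMB3, of laminin-332, by 1.40, with the other probe set at 0.56. None of 31 matrix metalloproteinase, ADAMTS and inhibitor genes and none of 23 plasminogen and coagulation genes differed by 2-fold; among the latter, F3, the tissue factor gene, was highest of those above the filter at 0.90.

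Among 37 integrin and focal adhesion genes 3 were at least 2-fold higher, NEDD9, TLN1 and FERMT2. NEDD9, a docking protein, differed by 3.93 in its brightest probe set and by 1.64 in its lowest. FERMT2, which encodes the integrin activator kindlin-2, differed by 1.17, with 4 probe sets between 0.84 and 1.23. TLN1 differed by 1.71 in 1 probe set and 0.06 in the other.

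Growth factors had few but sizeable differences. HBEGF, an EGF receptor ligand, read 5.03 and 7.25, a difference of 2.22, and SPRY4, an inhibitor of the same pathway, differed by 1.25 from a control value under the filter level; the other 22 of 24 genes of the EGF receptor list were under 2-fold. STC2, a secreted glycoprotein, differed by 1.97, with 3 probe sets up to 2.70, and GDF15, a stress cytokine, by 1.67. EDN1, the gene of endothelin-1, read 5.96 and 4.88, a difference of −1.08, and with STC2 and GDF15 was one of the 3 of 31 angiogenic and fibroblast growth factor genes at 2-fold. The matricellular genes CCN1 and CCN2 were higher by 1.92 and 1.31, and LATS2, a kinase of the Hippo pathway, by 1.14, in a list of 22 YAP and TEAD genes with 0 lower. The atypical chemokine receptor gene ACKR3 differed by 1.56, with all 4 probe sets between 1.53 and 1.64. ADORA1, an adenosine receptor, went the other way at −1.30, with the other probe set at −0.23; the other 22 of 24 receptors in this list were under 2-fold.

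Among genes of the BMP and TGF-β pathways, the ligand genes INHBA and BMP2 were higher by 2-fold or more. The target genes ID1, ID2 and SMAD6 were lower by as much. The remaining ID and SMAD genes with a named probe set were under 2-fold. ID proteins block helix-loop-helix factors and are classic BMP targets, as is the inhibitory SMAD6. Of 41 genes of the pathway 2 were higher by 2-fold and 3 lower by as much, with a median of 0.07 that is within the shift of either spike-in centring. INHBA, the gene of the activin subunit βA, read 6.56 and 9.50, a difference of 2.94. BMP2 read 4.67 and 6.73, a difference of 2.05 from a control value under the filter level. ID1 read 9.49 and 5.61, a difference of −3.88, with 3 probe sets between −3.88 and −3.10. ID2 and SMAD6 differed by −2.66 and −1.32, each from 1 probe set, and the value of ID2 with the bacterium, 4.72, was under the filter level. BAMBI, a BMP-induced decoy receptor, read −0.73.

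Heat shock genes encode chaperones, and several were lower with the bacterium. Of 39 genes 4 were at least 2-fold lower, against 0.417% of all genes with a named probe set, and 0 were higher. The median was −0.19. With hybridization spike-ins 7 members above the filter were at least 2-fold lower. This centring raised the count of lower genes among all 11653 from 76 to 170. With the loess correction 3 members were at least 2-fold lower, and with plain-suffix probe sets 0 of 8. HSPA1A read 12.52 and 11.10, a difference of −1.42, with its other probe set at −2.25, and HSPA1B read 10.25 and 8.18, a difference of −2.07. The protein products of this pair are known to be nearly identical, so their probe sets may read both transcripts. HSPA2 and DNAJB1 differed by −1.41 and −1.02, and HSPA2 was under the filter level with the bacterium. HSPA8, the constitutive family member, differed by −0.97 in its brightest probe set, with the lowest of 5 at −1.54. The co-chaperone gene BAG3 differed by −0.83, while DNAJB6 was higher, at 0.85, with 4 probe sets from 0.17.

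Regulators of glycogen and glucose metabolism were also among the lower genes. PPP1R3C, which brings protein phosphatase 1 to glycogen, read 7.37 and 3.99, a difference of −3.38, the largest decrease in a list of 28 glycogen genes in which no other member was at least 2-fold different. PPP1R3C had 1 kept probe set, and its value with the bacterium was under the filter level. TXNIP, an arrestin-like inhibitor of thioredoxin and glucose uptake, read 8.50 and 6.45, a difference of −2.05, with all 5 probe sets between −2.05 and −1.03. Its relative ARRDC3 differed by −1.31. These were the 2 lower genes among 18 for TXNIP, arrestins and glucose carriers. FOXO1, by contrast, read 6.26 and 8.50, a difference of 2.23, and SLC2A6, a sugar carrier of the same list, differed by 1.65. The lowest of 3 SLC2A6 probe sets read 0.33. RGS2, a brake on G protein signals, read 8.30 and 5.31, a difference of −2.99 from 1 probe set. The other 15 of 16 RGS genes were under 2-fold.

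The p53 targets differed in both directions, with 4 of 30 at least 2-fold higher, 2 lower (SESN1 and TP53INP1) and a median of −0.28. With either spike-in centring 4 members above the filter were at least 2-fold lower. The count of lower genes among all 11653 rose as well, from 76 to 115 with poly-A and 170 with hybridization spike-ins. PMAIP1, the gene of the BH3 protein NOXA, read 8.88 and 10.92, a difference of 2.04, GADD45A, a stress sensor, differed by 1.21 and PLK3, a stress kinase, by 1.44. SESN1 read 8.36 and 6.63, a difference of −1.73, with probe sets at −1.75 and −1.73, whereas SESN2 was higher as given above, so the 2 sestrins had opposite signs. In the BCL2 family PMAIP1 and BCL2L11, the gene of BIM, were the 2 of 23 at 2-fold; BCL2L11 differed by 1.35, but its lowest of 5 probe sets read 0.08.

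Chromatin and elongation regulators included members on both sides. HEXIM1 and HEXIM2, inhibitors of the elongation kinase P-TEFb, differed by −1.12 and −1.39. All 5 probe sets of HEXIM1 lay between −1.44 and −0.99, and the other 25 of 27 genes in that list were under 2-fold. Histone-modifying enzymes had 4 of 37 at least 2-fold higher (2 with hybridization spike-ins), KDM7A (1.52), KMT2A (1.41), KMT2C (1.21) and HDAC9 (1.13). The 6 probe sets of KMT2A lay between 0.63 and 1.82, and the control value of KDM7A was under the filter level. The aryl hydrocarbon receptor gene AHR was higher by 1.43, its target TIPARP by 1.38 and CYP1B1, another target, by 1.07; with PARP8 at 1.01 these were the 4 of 13 genes of that list at 2-fold, against 1.22% of all genes, of which AHR and TIPARP alone remained with either spike-in centring. CYP1B1 was supported by 4 probe sets from 1.07 to 1.25, while the 3 of AHR ranged from 0.61 to 1.52. AHRR, in the same list, read 0.03 in its brightest probe set and 0.91 in the other. The list median was 0.09, and −0.04 with poly-A spike-ins over the members above the filter. Of 20 circadian genes NFIL3 alone reached 2-fold, at 1.53, and 0 were at least 2-fold lower.

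Of 44 cell cycle and replication genes 1 was at least 2-fold higher, CDK6 at 1.06, and 1 lower, E2F8 at −1.40, against 1.22% and 0.417% of all genes. The median of −0.11 is smaller in size than the shift of either spike-in centring, which lowers every difference. Over the 41 members above the filter it was −0.13, and −0.27 with poly-A and −0.38 with hybridization spike-ins. With plain-suffix probe sets, which left 10 members, it was 0.17. Mitotic genes named by rank included BORA, an activator of Aurora A, at −1.44, SGO2, a protector of centromeric cohesion, at −1.44, and PSRC1, a spindle protein, at −1.48. The 2 probe sets of BORA read −1.56 and −1.44. CCNF, the gene of cyclin F, and FAM83D, a spindle protein, were at −1.45 and −1.30 and are named after their values were seen. The kidney development factors SALL1 and LHX1 differed by −1.18 and −1.42, and both probe sets of each were more than 2-fold lower. MAT2A, which makes S-adenosylmethionine, read 11.30 and 10.26, a difference of −1.04, with 5 probe sets between −1.23 and −0.81. PANK1, of coenzyme A synthesis, differed by −1.72. ELOVL6, a fatty acid elongase, read 8.52 and 7.51 and was just past 2-fold lower.

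Lists with few or no members at 2-fold were part of the picture. HIF factors and targets had 0 of 30 higher and 1 lower, EGLN3, a HIF prolyl hydroxylase, and cholesterol synthesis genes 0 of 25 in either direction. Of 35 WNT pathway genes 1 was lower, FZD1 at −1.07, and of 25 Notch pathway genes 1 was lower, HES1 at −1.31, whose 3 probe sets ranged from −1.31 to 0.30. HES1 was under the filter level with the bacterium, as were PANK1 and EDN1. Of 35 insulin signalling genes FOXO1 was the single member at 2-fold. Guidance genes had 1 of 37, EFNB2 at 1.11, and the caspase and inflammasome list 0 of 23. Among 28 cyclic AMP genes the factor gene CREB5 alone reached 2-fold, at 1.92, with 3 probe sets from 1.02. Among 28 nuclear receptor and coregulator genes THRB, a thyroid hormone receptor, at 1.29, and NCOA7 did. Long noncoding and microRNA host genes had 0 of 9.

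Some differences depended on which probe set was read. Among the genes with the widest spread, CXCL1 read 1.35 in its brightest probe set and 5.31 in the other, and LARP6 read 0.02 in its brightest against 2.15 at the most. SAMD4A differed by 2.32, while another of its 3 probe sets read 0.02. TP53INP1 read −1.61 and 0.16 in its 2 probe sets. For these genes the size of the difference could not be read from a single probe set. Besides TNIP1, TNIP3, SAMD4A and TP53INP1, the mean over probe sets brought under 2-fold, in the same direction, 20 other genes named or listed at 2-fold, among them KLF7, KMT2C, LAMB3, LATS2, CCN2, TLN1, BCL2L11, SLC39A14, EFNB2, CDK6, EDN1, ADORA1, HES1, IER5L, DNAJB1 and EGLN3.

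The remaining array, from cells with DRB, an inhibitor of transcription elongation at 60 µM, shares the control array, so its values are set beside those above without comparison. ID1 read −0.48 with DRB against control, ID2 −2.88, RGS2 −3.88, PPP1R3C −3.47 and TXNIP −1.02. TNFRSF10D read 0.42, HSPA1A −0.10, TNFAIP3 −1.26 and ICAM1 −0.36.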

How the data were processed

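Messenger RNA was measured on Affymetrix 3' expression arrays, 1 for the control and 1 for E. coli 83972 (another, for DRB, entered the filter and the choice of probe set). The deposited values are log2 probe-set values that the authors made with RMA and Partek, per the submitters' processing notes (their versions were not given in the sources used here). This method brings arrays to nearly one distribution, so a change shared by most transcripts is reduced, and low values are compressed. The sorted values of both arrays differed by at most 0.08. Of 49386 probe sets 45259 had 1 gene symbol, 1327 several and 2800 were not listed; 45178 had a current symbol after matching to a RefSeq table. For each gene the brightest probe set, by mean over the 3 arrays, was taken, and the gene was kept where any array reached 4.88. Differences are log2, E. coli 83972 minus control, computed with pandas 2.3.3 under Python 3.11.15. The calculation was tested on simulated data. The number of arrays limits the precision, and no p-value is given.

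The members and the 61 gene lists were chosen with earlier results of these data known. Named genes are the 30 highest and 30 lowest among those with several concordant probe sets, the 10 highest and lowest with 1, the 10 with the widest spread, and list members at 2-fold or among the 6 largest in size. Chemokines were left out of the ranks. Alternatives covered the choice of probe set, the filter, centring and a loess correction. The result of 1 gene list is not reported here.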

Additional observations from a re-analysis of the deposited data

Results flagged for a closer look

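Probe sets for E. coli genes, which enter the comparison of human genes only through the centring on hybridization spike-ins, read higher on the E. coli 83972 array. The 7 hybridization spike-in probe sets for bioB, bioC and bioD had a median of 8.30 on the control array and 8.62 on the E. coli 83972 array, with a median difference of 0.32, and all 7 were higher (0.10 to 0.37). The 2 probe sets for the phage gene cre, added in the same mixture, differed by 0.18, and on the DRB array the E. coli probe sets differed from control by 0.21. Whether RNA of the bacterium contributed was not tested.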

How the results depend on the processing

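The count of higher genes (222) was 141 with hybridization spike-ins and 82 with only plain-suffix probe sets, and that of lower genes (76) was 115 with poly-A spike-ins, 131 with cre spike-ins alone (added after the data were seen), 170 with hybridization spike-ins and 22 with plain-suffix probe sets, where 3459 genes were left. Genes whose probe sets all passed 2-fold in one direction numbered 88, against 56 without the filter and 10 with plain-suffix probe sets. Of 172 named or listed genes at 2-fold, all kept their direction under the 9 alternatives in which they had a value. For the filters and the spike-in centrings this was fixed in advance. The filters leave a gene's difference unchanged, and the centring shifts are smaller than a 2-fold difference. The number that fell under 2-fold was 24 with the mean over probe sets, 18 with poly-A, 23 with cre and 30 with hybridization spike-ins. Of 42 lists with a median above 0, 24, 28 and 33 turned below 0 with poly-A, cre and hybridization spike-ins, which shift all genes alike. No paired analysis was possible because each group has 1 array. Low control values limit the folds of 17 higher genes, and low values with the bacterium those of 12 lower genes.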
